A study of Mus musculus with 17 samples.

Results

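The interleukin-1 (IL-1) family was followed in the mouse hippocampus after sleep deprivation. Its members were 10 genes: the cytokine genes Il1a, Il1b, Il18 and Il33, the receptor antagonist gene Il1rn, the receptor genes Il1r1, Il1r2 and Il1rl1, the accessory protein gene Il1rap and its relative Il1rapl1. Every probe set whose platform annotation gave exactly 1 gene symbol, that symbol being 1 of these 10, was kept. This gave 16 of 45037 probe sets and 9 of the 10 genes, and Il1rl1, which encodes the receptor for the Il33 product, was not analysed here. Il1rap had 5 probe sets, Il1rn 3, Il1r1 2 and each of the other 6 genes 1. The genes were chosen by family membership and, at the same time, selected on earlier results of the same comparison, the log2 differences between sleep-deprived and undisturbed animals, among them a lower signal of the brightest Il1rap probe set. The group differences of the members are therefore given as a description, with no test of their own.

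The sleep-deprived group comprised 8 adult male C57BL/6J mice kept awake in their home cages for 5 h by gentle handling. The undisturbed group comprised 9 such mice left alone in their home cages over the same time. All animals were housed singly, had been handled daily for 6 days beforehand, and were 2 months old in the sample labels or 2 to 4 months old in the growth protocol. The RNA of each dissected hippocampus was hybridised to its own Affymetrix array, on which a set of short probes reads 1 stretch of a transcript. No animals were handled over those hours and then left to sleep, so handling and sleep loss cannot be told apart.

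IL-1α and IL-1β, the products of Il1a and Il1b, bind the receptor encoded by Il1r1, which signals only after it recruits the accessory protein encoded by Il1rap. The Il1rn product occupies the receptor without signalling, and the Il1r2 product is a decoy that binds ligand and does not signal. The Il1rap protein is shared with the receptor for the Il33 product, and it exists in membrane-bound, soluble and neuronal forms. IL-1β promotes non-rapid-eye-movement sleep in rodents, and IL-1 signalling also acts on hippocampal plasticity. The question for the family was which of its transcripts differ in the hippocampus after 5 h awake.

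The median log2 signal of an array was 6.14 to 6.22, and arrays correlated with each other at 0.993 to 0.998. The 10 neuronal markers had mean signals of 11.1 to 11.4 in sleep-deprived and 11.2 to 11.5 in undisturbed animals, with negative differences for all 10, and none passed (limma, 0 at an unadjusted p under 0.05). Arrays of 3 sleep-deprived animals (replicates 3, 5 and 7) and 2 undisturbed animals (replicates 4 and 9) stood apart in choroid plexus markers, an epithelium next to the hippocampus. Their mean signal over 11 measured markers was 6.78 to 7.33, against 5.53 to 6.14 in the other arrays. All 11 markers had positive differences between the groups and none passed limma's test, with 1 at an unadjusted p under 0.05. The hippocampus is bulk tissue, in which fewer cells of a type and less RNA per cell cannot be told apart.

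RefSeq start-site windows of Il1rap and Il33, the genes with a probe set called lower, are shown because they differ in composition. The other Il1rap probe sets were not called, and the windows of the other members are not printed. Each window holds 250 bases before and 50 after an annotated start in build GRCm38.p6, read 5′ to 3′ on the gene's strand. The Il1rap window lies at chr16:26581455-26581754 on the plus strand, and the Il33 windows at chr19:29924863-29925162 and chr19:29945540-29945839, both on the plus strand. Capitals mark a GC box (GGGCGG) or a TATA box (TATAAA) on either strand. No E-box (CACGTG), cAMP response element (TGACGTCA), AP-1 site (TGANTCA), NF-kB consensus or glucocorticoid response element was found in these 3 windows.
Il1rap: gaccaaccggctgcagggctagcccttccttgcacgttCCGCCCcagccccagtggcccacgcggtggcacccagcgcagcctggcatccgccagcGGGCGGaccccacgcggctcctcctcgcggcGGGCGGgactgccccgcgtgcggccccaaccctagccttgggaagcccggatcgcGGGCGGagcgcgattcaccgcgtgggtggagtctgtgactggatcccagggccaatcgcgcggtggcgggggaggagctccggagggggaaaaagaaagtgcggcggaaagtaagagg
Il33, first start: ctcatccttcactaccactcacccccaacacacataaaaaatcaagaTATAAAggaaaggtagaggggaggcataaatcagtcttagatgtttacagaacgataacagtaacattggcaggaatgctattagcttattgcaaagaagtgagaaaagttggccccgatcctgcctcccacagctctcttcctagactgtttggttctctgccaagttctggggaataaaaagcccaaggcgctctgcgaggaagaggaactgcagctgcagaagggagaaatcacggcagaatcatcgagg
Il33, second start: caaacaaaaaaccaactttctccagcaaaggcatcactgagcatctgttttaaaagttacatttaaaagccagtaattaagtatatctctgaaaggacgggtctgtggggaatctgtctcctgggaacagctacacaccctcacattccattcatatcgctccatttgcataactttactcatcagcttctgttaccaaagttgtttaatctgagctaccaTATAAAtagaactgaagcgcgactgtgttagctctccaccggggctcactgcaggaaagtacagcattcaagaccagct

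The Il1rap window held 33 CpG dinucleotides, 72.0% G and C, 4 GC boxes and no TATA box. The Il33 windows held 6 and 5 CpG dinucleotides, 46.3% and 42.3% G and C, 1 TATA box each and no GC box. Over 32851 windows of the same length the median was 7 CpG dinucleotides, 35.7% held a GC box and 13.6% a TATA box. An E-box was in 7.15% of windows, an AP-1 site in 7.81%, an NF-kB consensus in 4.51%, a cAMP response element in 1.79% and a glucocorticoid response element in 0.00913%. These are letter matches and describe the windows only.

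Of the 16 member probe sets, 2 were called lower after sleep deprivation and none higher, in limma's test adjusted over all probe sets. The called ones were the brightest Il1rap probe set and the single Il33 probe set. Of all 45037 probe sets 1.81% were called, 1.23% as lower and 0.584% as higher. The split between directions depended on the scaling between arrays: 32.2% of calls were higher with the deposited values, 44.9% after quantile normalization, 41.5% after cyclic loess and 19.2% after median centring. Among members 9 differences were positive and 7 negative. The median absolute log2 difference was 0.067 over the 16 member probe sets and 0.058 over all probe sets. Of the 8 member probe sets brighter than the median of all probe sets 2 were called, against 3.19% of all probe sets in that range. Of the 8 dimmer ones none was called, against 0.435%.

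**Figure D1:**
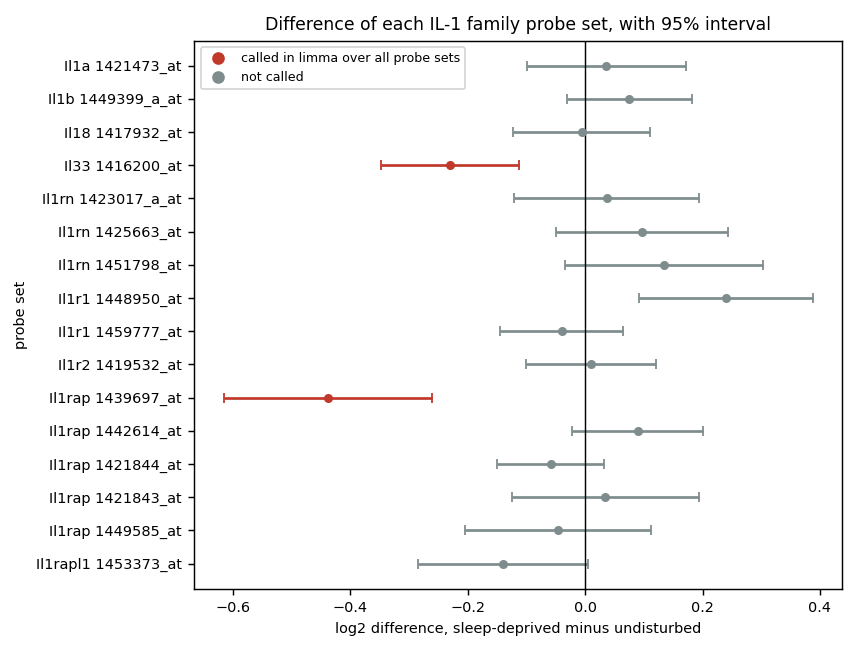
The log2 difference of each of the 16 member probe sets, sleep-deprived minus undisturbed (x axis), with its 95% interval from limma, for 8 and 9 animals. The brightest Il1rap probe set lies at -0.44 and Il33 at -0.23, Il1r1 has the highest value at 0.24, and the other 13 lie between -0.14 and 0.13.

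Il1rap encodes the accessory protein without which IL-1 receptors do not signal. Its brightest probe set, 1439697_at, ranged from 8.11 through a median of 8.31 to 8.54 in sleep-deprived animals, and from 8.54 through a median of 8.67 to 9.13 in undisturbed animals. Every sleep-deprived animal was below every undisturbed animal, though the highest sleep-deprived value, 8.536, and the lowest undisturbed value, 8.538, nearly met. Groups that did not overlap were found for 0.486% of all probe sets. The means were 8.31 ± 0.17 in sleep-deprived (SD, n = 8) and 8.75 ± 0.21 in undisturbed animals (SD, n = 9). The log2 difference was -0.44 (SE 0.085), a signal 1.36-fold lower after sleep deprivation. Among all probe sets the size of this difference stood at the 99.9 percentile.

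The other 4 Il1rap probe sets had differences between -0.058 and 0.090, and none was called. Probe set 1442614_at ran from 8.22 through a median of 8.33 to 8.51 in sleep-deprived animals and from 8.08 through 8.22 to 8.41 in undisturbed animals, and its difference was positive, at 0.090 (SE 0.054). Here 7 of 8 sleep-deprived animals lay above the undisturbed mean, and the groups overlapped. Probe set 1421844_at ran from 7.34 through 7.47 to 7.58 after sleep deprivation and from 7.42 through 7.51 to 7.59 in undisturbed animals, with a difference of -0.058 (SE 0.044). Probe set 1421843_at ran from 6.30 through 6.79 to 6.95 after sleep deprivation and from 6.54 through 6.65 to 6.76 in undisturbed animals, with a difference of 0.034 (SE 0.077). Its SD was 0.24 in sleep-deprived and 0.084 in undisturbed animals. Probe set 1449585_at, the dimmest, ran from 4.20 through 4.29 to 4.70 after sleep deprivation and from 4.17 through 4.36 to 4.76 in undisturbed animals, with a difference of -0.046 (SE 0.076). With the mean of all 5 probe sets Il1rap lay at -0.084 and was not called. Which transcript form each probe set reads was not analysed here.

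**Figure D2:**
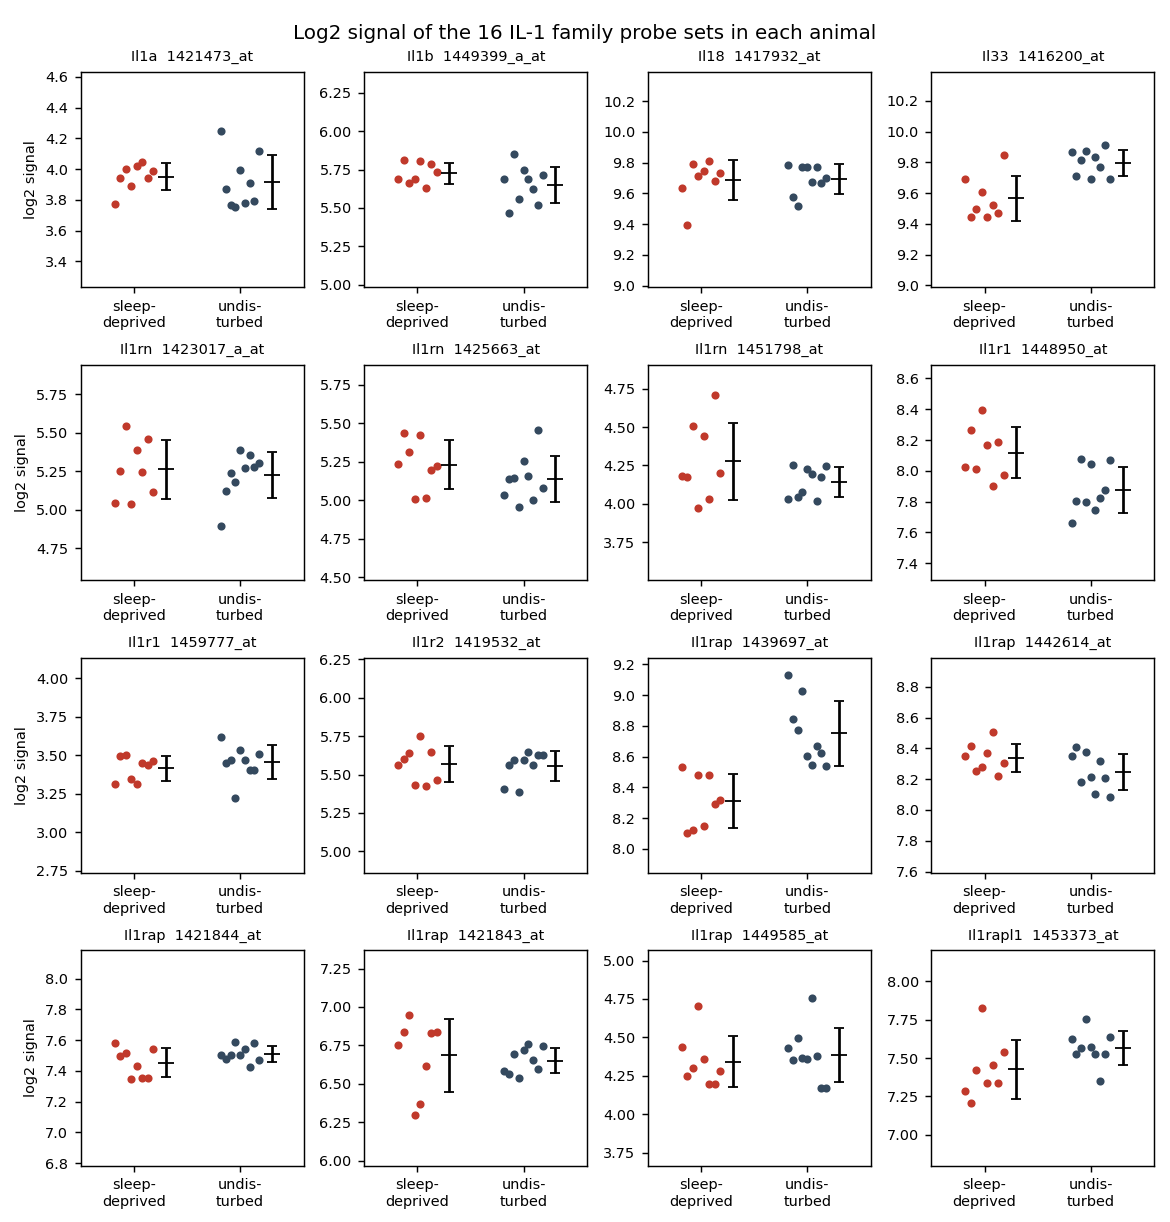
Log2 signal (y axis) of each member probe set in the 8 sleep-deprived (red) and 9 undisturbed animals (dark blue), 1 point per animal in replicate order, with the group mean and SD as a bar; every panel spans the same number of log2 units. The groups are fully separate for Il1rap 1439697_at, with 8.54 the highest sleep-deprived value, and overlap in the other 15 panels.

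Between animals of the same group, the Il1rap probe sets were compared as a measure that the group difference does not enter. Over all members, 28 correlations between probe sets of 1 gene were computed, 14 pairs in each group, and none passed after Benjamini-Hochberg adjustment (smallest adjusted p = 0.11, exact permutation), with 4 at an unadjusted p under 0.05. The brightest probe sets, 1439697_at and 1442614_at, gave r = 0.16 in sleep-deprived animals (rho = 0.00, n = 8, exact permutation p = 0.70, adjusted p = 0.93). In undisturbed animals they gave r = 0.77 (rho = 0.82, n = 9, exact permutation p = 0.015, adjusted p = 0.11, and r = 0.78 without the 2 animals farthest from the median). Probe sets 1439697_at and 1421843_at gave r = -0.32 in sleep-deprived animals (rho = -0.62, n = 8, exact permutation p = 0.41, adjusted p = 0.81). In undisturbed animals this pair gave r = -0.77 (rho = -0.87, n = 9, exact permutation p = 0.015, adjusted p = 0.11, and r = -0.70 without 2 animals). Probe sets 1442614_at and 1421843_at of the same gene gave r = -0.19 in sleep-deprived animals (rho = -0.21, n = 8, exact permutation p = 0.65, adjusted p = 0.91). In undisturbed animals they gave r = -0.88 (rho = -0.88, n = 9, exact permutation p = 0.0045, adjusted p = 0.11, and r = -0.80 without 2 animals). The difference between the groups in these correlations was not tested. The relation of these 3 Il1rap probe sets to the spread of the array is given in the next paragraph.

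The brightest Il1rap probe set moved with the spread of the whole array. The interquartile range of an array's values was 3.57 to 3.76 in sleep-deprived animals (mean 3.66 ± 0.073, SD, n = 8) and 3.62 to 3.80 in undisturbed animals (mean 3.72 ± 0.059, SD, n = 9). Within sleep-deprived animals 1439697_at went with it at r = 0.90 and rho = 0.95 (n = 8, exact permutation, adjusted p = 0.12 for r and 0.037 for rho over 32 such relations). Within undisturbed animals the values were r = 0.82 and rho = 0.88 (n = 9, exact permutation, adjusted p = 0.12 for r and 0.049 for rho). Without the 2 animals farthest from the median, r was 0.81 and 0.84 in the sleep-deprived and undisturbed groups. Of all 32 relations of member probe sets with this range none passed by r, and 9 had an unadjusted p under 0.05. By rho 2 passed, those of 1439697_at. Other members ran against the range, and r was positive in 13 of 32. Il1rn 1423017_a_at was at r = -0.80 in sleep-deprived and -0.71 in undisturbed animals, and Il1r2 at -0.70 and -0.77. With that range as a covariate the difference of 1439697_at was -0.29 and the probe set was still called, and after quantile normalization it was -0.41. Without the choroid-rich arrays it was -0.36 and not called. The part of array spread and blood markers in this difference was not tested. In undisturbed animals 1442614_at and 1421843_at were at r = 0.69 and -0.73 with the interquartile range (n = 9, exact permutation, adjusted p = 0.15 and 0.14). In sleep-deprived animals they were at r = -0.056 and -0.29 (n = 8, exact permutation, adjusted p = 0.90 and 0.68). The part of array spread in the correlations between Il1rap probe sets was not tested.

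**Figure D3:**
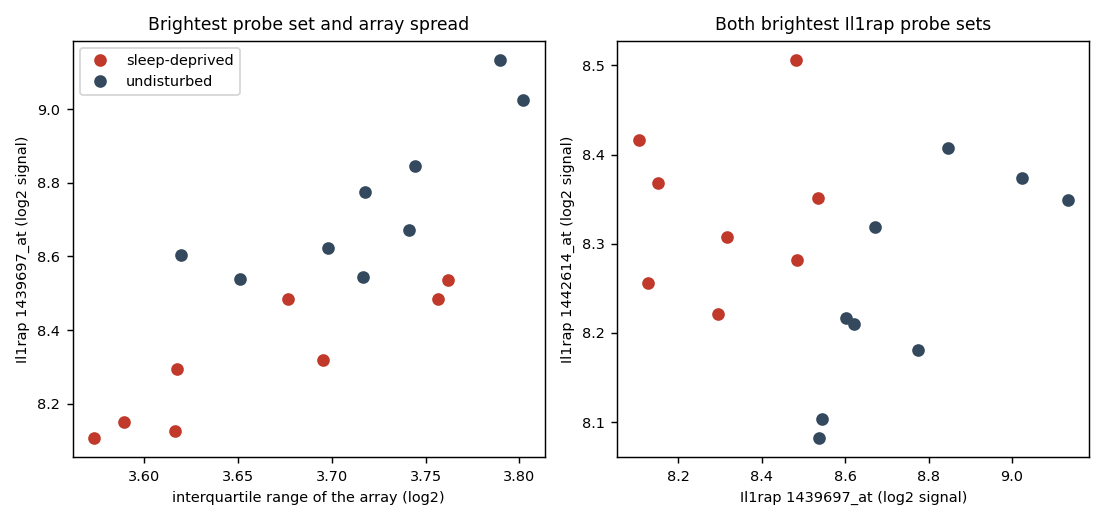
Left, Il1rap 1439697_at (y axis, log2 signal) against the interquartile range of the array's log2 values (x axis), and right, Il1rap 1442614_at (y axis) against 1439697_at (x axis), 1 point per animal, red for 8 sleep-deprived and dark blue for 9 undisturbed. On the left the points climb within each group (r = 0.90 and 0.82). On the right r was 0.77 in undisturbed animals and 0.16 in sleep-deprived ones (exact permutation, adjusted p = 0.11 and 0.93). Neither value on the right passed, and the difference between them was not tested.

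As a description over the 17 animals after removal of the group means, the genes most like 1439697_at were Ankrd10 (r = 0.93), G2e3 (r = 0.92), Zmym5 (r = 0.91), Tbck (r = 0.90) and Zranb2 (r = 0.90). These arrays share the same spread differences. Their own group differences were small, between -0.042 for Zmym5 and 0.083 for Ankrd10.

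Il1rapl1 encodes a neuronal relative of the accessory protein that organises excitatory synapses. Its probe set ran from 7.21 through a median of 7.38 to 7.83 in sleep-deprived animals and from 7.35 through 7.57 to 7.76 in undisturbed animals. It was below the undisturbed mean in 7 of 8 sleep-deprived animals, and the remaining one, replicate 4, held the highest value of all 17. The difference was -0.14 (SE 0.070) and was not called. Without the choroid-rich arrays it was -0.065.

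Among the ligands, Il33 encodes an alarmin, a nuclear cytokine released by damaged cells, which glia express in the mouse brain. It ran from 9.44 through a median of 9.51 to 9.85 in sleep-deprived animals and from 9.69 through 9.82 to 9.91 in undisturbed animals. Of the 8 sleep-deprived animals 7 lay below the undisturbed mean, while replicate 8 at 9.85 lay above it, so the groups overlapped. The means were 9.57 ± 0.14 (SD, n = 8) after sleep deprivation and 9.80 ± 0.083 (SD, n = 9) in undisturbed animals, a log2 difference of -0.23 (SE 0.057), or a signal 1.17-fold lower. Il33 was no longer called when any 1 of 11 arrays was left out (sleep-deprived replicates 2, 3, 5, 6 and 7, undisturbed replicates 1, 3, 4, 6, 7 and 8), with differences from -0.27 to -0.21 over all single arrays left out.

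Glial markers are given beside Il33 because glia express it. Of 9 measured oligodendrocyte markers Opalin, a myelin membrane protein gene, fell (-0.41, limma adjusted p = 0.0020), 8 did not pass, and 7 had negative differences. Their mean signal ran from 11.03 to 11.33 in sleep-deprived and from 11.13 to 11.41 in undisturbed animals. With this mean as a covariate the Il33 difference was -0.19 and not called. Il33 was also not called with the array interquartile range as a covariate (-0.16), without the choroid-rich arrays (-0.18), with the choroid plexus markers as a covariate (-0.20) or with array weights (-0.21). Within groups Il33 went with the array interquartile range at r = 0.71 and rho = 0.88 in sleep-deprived animals (n = 8, exact permutation, adjusted p = 0.15 for r and 0.068 for rho; r = 0.80 without 2 animals). In undisturbed animals the values were r = 0.60 and rho = 0.48 (n = 9, exact permutation, adjusted p = 0.20 for r and 0.43 for rho; r = 0.32 without 2 animals). Of 10 astrocyte markers Gjb6, a connexin gene, rose (0.36, limma adjusted p = 0.0082) and 9 did not pass, with mean signals of 10.90 to 11.15 in sleep-deprived and 10.99 to 11.07 in undisturbed animals. The part of glial RNA and of array spread in the Il33 difference was not tested.

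Il18 encodes a cytokine that a caspase activates. Its signal ran from 9.39 to 9.81 in sleep-deprived and from 9.52 to 9.79 in undisturbed animals, with a difference of -0.0062 (95% interval -0.12 to 0.11). Without sleep-deprived replicate 2, the lowest animal, the difference was 0.036. Il1b, the cytokine gene most studied in sleep, had means of 5.72 ± 0.069 (SD, n = 8) in sleep-deprived and 5.65 ± 0.12 (SD, n = 9) in undisturbed animals. Its difference was 0.075 (95% interval -0.031 to 0.18). Il1a was at 3.95 ± 0.087 (SD, n = 8) in sleep-deprived and 3.92 ± 0.17 (SD, n = 9) in undisturbed animals, a difference of 0.036. As a guide to array background, 26 measured genes of other organs, such as Alb of liver, had mean signals from 3.48 to 7.15. The means of 9 member probe sets, those of Il1a, Il1b, Il1r2, all 3 of Il1rn, the dimmer of Il1r1 and 2 of Il1rap, lay no higher than the highest of these. Probe sets differ in how well they bind, so such a level does not show that a transcript was absent, and differences of dim probe sets are compressed.

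The antagonist gene Il1rn showed positive differences through all 3 probe sets, of 0.036, 0.097 and 0.13, and none was called. The last, 1451798_at, ran from 3.97 through a median of 4.19 to 4.71 in sleep-deprived animals and from 4.02 through 4.17 to 4.26 in undisturbed animals. Its medians were close, and the 3 choroid-rich sleep-deprived animals (replicates 3, 5 and 7) lay above all undisturbed ones. The choroid-rich undisturbed animals, replicates 4 and 9, were at 4.08 and 4.24, within the range of their group. Without the choroid-rich arrays the difference of 1451798_at was -0.024, that of 1423017_a_at was -0.081 and that of 1425663_at was 0.015. The part of choroid plexus RNA was not tested.

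Il1r1, the signalling receptor gene, is expressed in brain mainly by vessel cells and by some neurons, among them dentate granule cells in the mouse. Its brighter probe set ran from 7.90 through a median of 8.10 to 8.40 in sleep-deprived animals and from 7.66 through 7.82 to 8.07 in undisturbed animals. All 8 sleep-deprived animals lay above the undisturbed mean, and the groups overlapped. The means were 8.12 ± 0.17 (SD, n = 8) after sleep deprivation and 7.88 ± 0.15 (SD, n = 9) in undisturbed animals, a difference of 0.24 (SE 0.071), or 1.18-fold. It was not called over all probe sets, and it was called when only probe sets above the median signal were tested. Without the choroid-rich arrays the difference was 0.25. Of 11 endothelial markers the receptor gene Tek (-0.26, limma adjusted p = 0.040) and the transporter gene Slco1a4 (-0.32, limma adjusted p = 0.0057) fell, and 9 did not pass. Over the 11 the differences were positive for 6 and negative for 5, with a median of 0.0036. The dimmer Il1r1 probe set was at -0.040, and the decoy receptor gene Il1r2 at 0.0096 (95% interval -0.10 to 0.12).

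Levels of the members were also set against marker means between animals of 1 group, in 90 relations over 5 marker lists. For choroid plexus no correlation is given, since the animals fall into separate clusters. With the other lists 3 relations passed by Pearson's r (exact permutation, adjusted over all 90) and none by Spearman's rho, with 10 at an unadjusted p under 0.05 for r. Il1rn through 1423017_a_at went with microglial markers in undisturbed animals at r = 0.91 and rho = 0.90 (n = 9, exact permutation, adjusted p = 0.0073 for r and 0.091 for rho). In sleep-deprived animals the same relation was at r = 0.015 (rho = -0.024, n = 8, exact permutation, adjusted p = 0.99). After quantile normalization the sleep-deprived value was r = 0.49 (rho = 0.57, n = 8, exact permutation, adjusted p = 0.71). After median centring it was r = -0.18 (rho = -0.14, n = 8, exact permutation, adjusted p = 0.84). The difference between the groups in this relation was not tested. The mean signal of 1423017_a_at, 5.24, lay within the range of the genes of other organs. In undisturbed animals it also ran against the array interquartile range at r = -0.71 and rho = -0.78 (n = 9, exact permutation, adjusted p = 0.14 for r and 0.092 for rho). The part of array spread in this relation was not tested. Il1rap 1439697_at ran against the blood cell markers at r = -0.93 (rho = -0.90) in sleep-deprived animals (n = 8, exact permutation, adjusted p = 0.061) and r = -0.95 (rho = -0.93) in undisturbed animals (n = 9, exact permutation, adjusted p = 0.0064). The blood markers had mean signals of 5.29 to 5.52 in sleep-deprived and 5.21 to 5.40 in undisturbed animals, and none of the 8 measured passed limma's group test, with 1 at an unadjusted p under 0.05. Levels of these 8 ran from 4.22 (S100a8) to 6.77 (Cd3e). All lay within the 3.48 to 7.15 of the genes of other organs, so blood content and array background cannot be told apart in their mean. The part of array background in the relations with blood markers was not tested. Il1rn and the blood markers gave r = 0.82 (rho = 0.90, n = 8, exact permutation, adjusted p = 0.20) and r = 0.88 (rho = 0.83, n = 9, exact permutation, adjusted p = 0.046) in sleep-deprived and undisturbed animals. Without the 2 animals farthest from the median these 3 passing correlations were 0.87, -0.86 and 0.74. None passed without undisturbed replicate 1 or 2. After quantile normalization the Il1rap relation with blood markers in undisturbed animals was at r = -0.91 (rho = -0.75, n = 9, exact permutation, adjusted p = 0.059) and after median centring at r = -0.86 (rho = -0.90, n = 9, exact permutation, adjusted p = 0.082). The Il1rn relation with blood markers also did not pass after either (exact permutation, adjusted p = 0.078 and 0.067), while that of Il1rn with microglial markers did (exact permutation, adjusted p = 0.038 and 0.042).

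Around the members, 63 genes of the IL-1 pathway were measured in 4 lists, each through its brightest probe set, and 1 rose, 1 fell and 61 did not pass. Over all 18193 genes 3.97% were called, 1.25% as higher and 2.73% as lower. The median log2 difference was 0.0058 over the pathway genes and 0.0016 over all genes. Among 25 signalling genes Peli2, a Pellino ubiquitin ligase gene that acts on the receptor-associated kinases, was at 7.66 ± 0.12 (SD, n = 8) in sleep-deprived and 7.98 ± 0.11 (SD, n = 9) in undisturbed animals. It fell by 0.32 on the log2 scale (SE 0.056, limma adjusted p = 0.0023), with all 8 sleep-deprived animals below the undisturbed mean. With the mean of all its probe sets the Peli2 difference was -0.15 and did not pass (limma adjusted p = 0.052). Nfkbia, which encodes the inhibitor of NF-kB and is induced by it, rose by 0.28 (SE 0.072, limma adjusted p = 0.032), with all 8 sleep-deprived animals above the undisturbed mean. It did not pass when any 1 of 8 arrays was left out (sleep-deprived replicates 1, 2, 4 and 7, undisturbed replicates 1, 2, 4 and 6), with differences from 0.23 to 0.31 over all single arrays left out. Without the choroid-rich arrays Peli2 was at -0.26 (limma adjusted p = 0.071) and Nfkbia at 0.26 (limma adjusted p = 0.17).

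**Figure D4:**
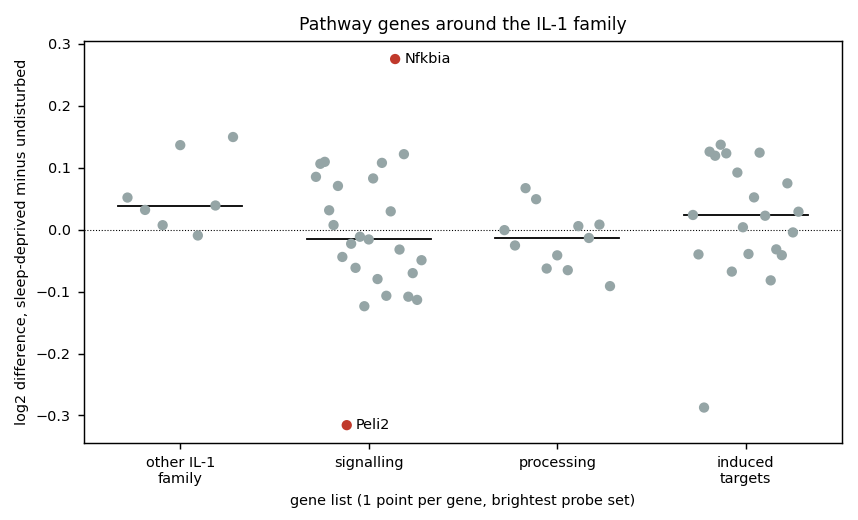
Log2 difference (y axis), sleep-deprived minus undisturbed, of 63 measured pathway genes in 4 lists (x axis), 1 point per gene, with the list median as a bar. Nfkbia at 0.28 and Peli2 at -0.32 are called (red); the lowest grey point is Ptgs2 at -0.29.

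The other 23 signalling genes did not pass; of all 25, 7 had an unadjusted p under 0.05 in limma's test, Peli2 and Nfkbia among them. The adaptor gene Myd88 was at 0.085 (limma adjusted p = 0.52), the receptor-associated kinase gene Irak1 at 0.11 (limma adjusted p = 0.37) and the ubiquitin ligase gene Traf6 at 0.0075 (limma adjusted p = 0.95). Of 11 genes that process IL-1 cytokines none passed (limma, 0 at an unadjusted p under 0.05), and differences ran from -0.091 to 0.067. Casp1, the protease gene that matures IL-1β and IL-18, was at -0.00069 (limma adjusted p = 0.998). Of 7 other family genes none passed (limma, 2 at an unadjusted p under 0.05). The inhibitory receptor gene Sigirr was at 0.039 (limma adjusted p = 0.70) and Il18bp, which encodes the soluble IL-18 antagonist, at -0.0094 (limma adjusted p = 0.94).

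Of 20 genes that IL-1 is known to induce none passed (limma, 4 at an unadjusted p under 0.05), 12 had positive and 8 negative differences, and their median was 0.023. Il6 was at 0.024 (limma adjusted p = 0.79) and Tnf at -0.040 (limma adjusted p = 0.77). Ptgs2, the inducible prostaglandin synthase gene, had the lowest difference, at 7.95 ± 0.26 (SD, n = 8) in sleep-deprived and 8.24 ± 0.20 (SD, n = 9) in undisturbed animals. Its difference was -0.29 (SE 0.096, limma adjusted p = 0.098), which passed without undisturbed replicate 5 or sleep-deprived replicate 6 and with the mean of its probe sets (limma adjusted p = 0.029).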

How the data were processed

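Hippocampal RNA of 17 mice, 8 sleep-deprived and 9 undisturbed, was read on 1 array per animal, with groups taken from the sample labels. The values deposited by the authors are log2 signals per probe set; the submitters' processing notes name RMA and affy. Base 2 is taken from the range of values, 2.90 to 14.8. The notes used here give no versions and no order of steps. RMA is meant to bring arrays to like distributions, which would hide any shift common to most transcripts. The deposited values still differed in spread between arrays, with interquartile ranges from 3.57 to 3.80. Precision is limited by how few arrays there are.

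Of 45101 probe sets 64 controls were left out. In the platform annotation 34945 probe sets had 1 symbol, 932 several and 9160 none. limma 3.58.1 (lmFit, eBayes) under R 4.3.3 was fitted to all 45037 probe sets, and to 18193 genes by their brightest probe set, with Benjamini-Hochberg adjustment over each table and a threshold of 0.05. It was tested on simulated data. Within-group correlations used two-sided exact permutation. All p-values printed are from these tests.

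The members, gene lists and naming rule were chosen with earlier results of these data known. The rule named all Il1rap probe sets, the 5 largest member differences, called pathway genes, 10 pathway genes by name, and the 5 genes most like the brightest Il1rap probe set. Opalin, Gjb6, Tek and Slco1a4 were named as the called markers. Start-site sequences are from RefSeq (GRCm38.p6) and matched all 10 members.

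Alternatives were quantile normalization, median centring, a signal filter, trend and robust eBayes, array weights, a replicate block, covariates for choroid plexus markers and RNA quality, other probe set rules and each array left out. Cyclic loess, covariates for oligodendrocyte markers, array interquartile range and the first residual principal component, and leaving out choroid-rich arrays were added after seeing the data.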

Additional observations from a re-analysis of the deposited data

Results flagged for a closer look

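Among 32 groups of member values checked for a single distant animal, 1 was flagged, and chance flags about 1 in 20 groups. Il18 in sleep-deprived replicate 2 was at 9.39 on the log2 scale, below the other 7 sleep-deprived animals at 9.64 to 9.81. Its gap to the next animal was 0.588 of the group's range, against a critical value of 0.526. Without this animal the Il18 difference was 0.036, against -0.0062 with it, and Il18 was called in neither case.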

How the results depend on the processing

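The lower signal of the brightest Il1rap probe set kept its direction under every alternative run. It was called under all of them except without the 5 choroid-rich arrays (-0.36), which leaves 5 sleep-deprived and 7 undisturbed arrays, and when its 5 probe sets were averaged (-0.084). Without 1 array it ran from -0.47 to -0.39. These runs use the arrays whose earlier results guided the selection of the members. They show how the value depends on processing and give no independent support for it. Member probe sets called lower numbered 1 with array weights, with the choroid plexus, oligodendrocyte or interquartile range covariate, and 0 without the choroid-rich arrays, where 54 probe sets in all were called higher and 68 lower. Leaving out 1 array gave 1 to 2 called lower and 0 called higher. With the signal filter, which tests fewer probe sets, 1 was called higher. Pathway genes called higher numbered 0 with the oligodendrocyte or interquartile range covariate and without the choroid-rich arrays, where 0 were also called lower. Without 1 array, 0 to 1 were higher and 1 to 2 lower. Correlations with marker means that passed numbered 1 after quantile normalization or median centring, and 0 to 4 without 1 animal. Correlations between probe sets of 1 gene that passed numbered 0 to 1. Except where named, the cause was not tested. Over all probe sets 263 were called higher and 553 lower. With the signal filter these were 428 and 951, after quantile normalization 429 higher, after cyclic loess 407 higher and after median centring 169 higher. With the oligodendrocyte covariate they were 136 and 243, with the interquartile range covariate 276 and 225, and with the first residual principal component 525 and 976. Deviations of same-numbered animals of the groups correlated at -0.068 to 0.39 over 8 pairs, with 4 of 8 over 0.1. Of the 8, 1 was best with its own number, so the numbers were not taken as pairs. With the replicate block, 2 member probe sets were called lower and 0 higher, Il1rap was at -0.47, and no member or pathway call changed.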
